A study of Mus musculus with 4 samples.

Results

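The genes described here are 10 mouse genes of blood vessel growth, chosen by name: the vascular endothelial growth factors Vegfa, Vegfc and Pgf, their receptors Kdr, Flt1 and Nrp1, the angiopoietin Angpt1 and the angiopoietin-like factors Angptl2, Angptl4 and Angptl7. Of 12394 genes named by a probe set with 1 symbol, 9 of these 10 were found, with 15 probe sets, and the expression of Angptl2 was not analysed here. They were measured in YAMC cells, a colon epithelial line made from young adult mice that carry a temperature-sensitive viral large T antigen under an interferon-inducible promoter, which both groups therefore share. The untreated group had no treatment, and the LGG group was kept for 16 h with medium conditioned by the probiotic bacterium Lactobacillus GG. Total RNA of each group was hybridised to 2 mouse 430A arrays, and the titles give 2 dates (date 1 and date 2), each with 1 array of each group. Neither what a date marks nor whether each array had its own culture is given, so p-values measure the spread between these arrays, which may be technical. Unconditioned medium was not analysed here, so products of the bacteria and effects of the medium cannot be told apart.

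VEGF ligands are secreted dimers that bind receptor tyrosine kinases, of which Kdr (VEGFR2) carries most of the growth signal and Flt1 (VEGFR1) binds VEGF-A and PlGF tightly while signalling weakly. Neuropilin 1 is a co-receptor that holds VEGF-A beside Kdr and also serves class 3 semaphorins, which compete for it. Angiopoietin 1 activates the Tie2 receptor, whereas the angiopoietin-like proteins have a similar fold but do not bind Tie2, and Angptl4 is best known as an inhibitor of lipoprotein lipase. Epithelia are usually a source of VEGF-A, and Kdr is best known from endothelium.

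The deposited values were linear intensities without detection calls, and the mean of an array, trimmed of 2% at each end, ranged from 500.1 to 513.5. A probe set was tested if it had values on all arrays and a mean intensity of at least 101, which left 10333 probe sets for 6952 genes. At date 1 the values of 6307 of the 22690 probe sets were missing, on both arrays alike. Of 14 epithelial markers, Krt8, Krt18, Krt19, Krt7 and Tjp1 passed the filter, whereas the defining markers Epcam (6 to 9), Cdh1 (8.7 to 41.8) and Vil1 (1.7 to 10.5) were dim on all arrays, and 10 of 11 mesenchymal markers with values on all arrays passed, among them Vim (9532 to 12489). Of 6 leukocyte markers 2 passed the filter, of which Cd68, also found in other cells, was higher with LGG (log2 change 1.06; it did not pass without date as a block) and Csf1r did not pass (-0.12), and Ptprc measured 15.4 to 37.2. The ratio of 3' to 5' Gapdh signal, a measure of RNA integrity, was 0.805 untreated and 0.931 with LGG at date 1, and 0.784 and 0.768 at date 2, and its part in any result was not tested.

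Of the 9 genes, 4 had a probe set that was tested (Angptl7, Nrp1, Kdr and Vegfa) and 5 had none (Vegfc, Pgf, Flt1, Angpt1 and Angptl4). Angptl7 and Nrp1 were lower and Kdr was higher with LGG conditioned medium, and Vegfa moved one way at date 1 and the other at date 2. These 3 of the 4 passed a limma fit over all probe sets in which date was a block (threshold 0.05 after Benjamini-Hochberg adjustment), in which 6.50% of all genes passed, 3.01% higher and 3.50% lower. The genes were chosen with this contrast known, so which of them passed is given as a description of the fit, is no independent test of them, and nothing is read from that share. Without date as a block 0.877% of all genes passed, and of these genes Angptl7 alone. Both LGG values of Angptl7 were under the filter, so it entered the test through its untreated arrays. When dim probe sets were kept, limma called 0 of 10782 genes (1525 at an unadjusted p under 0.05). A fit with 1 array left out had no residual degree of freedom for the date block and was made without it, so a call lost there is not due to the array alone. On simulated data the fit with the block made more false calls than the nominal share. With 1 residual degree of freedom against 12.5 shared across genes, the SE of a gene can understate how far its arrays differed. In bulk RNA, fewer cells with a transcript and less transcript per cell cannot be told apart.

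The promoters of the 3 genes that passed are shown to let their sequences be compared, as the 250 bases before the start in the RefSeq-derived promoter table (GRCm38.p6), 5′ to 3′ on the gene's strand. Capitals mark the GC box GGGCGG, the binding motif of Sp1-type factors, read on either strand. The first is Angptl7 (chr4:148500463-148500712, minus strand), the second Nrp1 (chr8:128358823-128359072, plus strand) and the third Kdr (chr5:75978456-75978705, minus strand).
Angptl7: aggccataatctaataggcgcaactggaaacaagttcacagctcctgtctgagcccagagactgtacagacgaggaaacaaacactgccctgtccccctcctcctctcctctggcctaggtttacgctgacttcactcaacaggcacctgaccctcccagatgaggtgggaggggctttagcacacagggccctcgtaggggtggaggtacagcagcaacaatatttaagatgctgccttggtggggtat
Nrp1: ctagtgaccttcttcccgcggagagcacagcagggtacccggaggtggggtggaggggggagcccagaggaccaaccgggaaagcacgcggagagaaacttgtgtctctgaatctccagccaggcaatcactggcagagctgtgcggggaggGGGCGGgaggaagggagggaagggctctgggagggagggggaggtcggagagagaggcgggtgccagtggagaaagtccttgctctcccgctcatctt
Kdr: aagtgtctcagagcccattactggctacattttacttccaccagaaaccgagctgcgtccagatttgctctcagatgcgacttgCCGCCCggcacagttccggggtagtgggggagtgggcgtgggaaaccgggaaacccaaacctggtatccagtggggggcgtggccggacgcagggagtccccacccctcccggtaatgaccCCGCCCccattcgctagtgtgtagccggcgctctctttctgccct
The Kdr promoter held 2 GC boxes and the Nrp1 promoter 1, whereas the Angptl7 promoter held none, and its GC content over the whole window, with 50 bases after the start, was 51.3% against 60.7% for Kdr and 64% for Nrp1. Over both strands of that window, 7 of the 8 genes with a promoter in the table held a GC box in at least 1 of their windows. By window, 8 of 10 held it, against 35.7% of all 32851 promoter windows, and the median GC content of all windows was 52.7%. The 8 genes included Angptl2 and left out Angpt1 and Angptl4, which had no promoter there. The counts that follow are of genes, and the shares beside them are of all windows. The hypoxia response core ACGTG was found in 1 of the 8 (Vegfa, in 1 of its 2 windows), against 19.6%. The cAMP response core TGACG was found in 3 (Vegfa, in the same window, Flt1 and Angptl2), against 20.8%. The AP-1 motif TGANTCA was found in 0, against 7.81%. On the minus strand, that Vegfa window (chr17:46025164-46025413) lies downstream of the other (chr17:46032378-46032627), which held neither core. The 2 cores of Vegfa, at -211 and -209 from the start, share bases and are 1 stretch of sequence. A match is a string of letters and not a measured binding site.

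Angptl7 encodes a secreted angiopoietin-like protein of the extracellular matrix. Its probe set 1451478_at measured 413.5 (date 1) and 418.6 (date 2) untreated, against 72.2 and 28.1 with LGG. The untreated arrays lay close together, both LGG arrays were far below them and the groups did not overlap. Mean intensity was 416 ± 3.61 untreated and 50.2 ± 31.2 with LGG (SD, n = 2), and the fitted log2 change was -2.61 ± 0.29 (SE). Both LGG values were under the filter of 101, so the probe set entered the test through its untreated arrays. With no background level to set such dim values against, no linear fold is given, and the fitted change holds for the scale of log2(intensity + 25.2) alone. Angptl7 had a log2 change of -3.05 without LGG replicate 1 and -2.18 without LGG replicate 2.

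Nrp1, the co-receptor for VEGF and semaphorins, had 3 probe sets that were tested, and the LGG arrays were below the untreated arrays on all of them. The brightest, 1448943_at, measured 655.5 and 753.4 untreated and 363 and 331.7 with LGG at dates 1 and 2. Both untreated arrays were high, the LGG arrays differed little from each other, and the mean went from 704 ± 69.2 to 347 ± 22.1 (SD, n = 2), a log2 change of -0.97 ± 0.23 (SE). The second, 1418084_at, measured 587.3 and 432.8 untreated and 352.1 and 299.5 with LGG, a log2 change of -0.60 ± 0.24. Here the untreated array of date 1 was well above that of date 2, and the probe set did not pass. The third, 1448944_at, measured 159.3 and 194.1 untreated and 152.2 and 104.1 with LGG, a log2 change of -0.41 ± 0.28, and it did not pass either. Nearly all of that difference was at date 2, with a log2 ratio of -0.76 against -0.06 at date 1. The 3 probe sets had the same sign and differed in size, and 1 of them passed (6.55% of all probe sets did, from which nothing is read here). No test compared them with each other, and with their log2 values averaged the change of Nrp1 was -0.66. No overlap between the groups was common in these data: 48.5% of all genes showed it, 22.3% with LGG lower. The brightest probe set did not pass without date as a block, either with all 4 arrays or without LGG replicate 2 (log2 change -0.91), and it passed without LGG replicate 1 (-1.03).

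Kdr, the main signalling receptor for VEGF-A, was higher with LGG conditioned medium. Its probe set 1449379_at measured 136.2 (date 1) and 128.9 (date 2) untreated, against 396.5 and 329.2 with LGG. The untreated arrays lay just above the filter of 101, both LGG arrays were well above them and the groups did not overlap. The mean went from 133 ± 5.16 to 363 ± 47.6 (SD, n = 2), a log2 change of 1.29 ± 0.25 (SE). That is 2.45-fold on the scale of intensity + 25.2, which is smaller than the ratio of the intensities themselves. The LGG array was 2.91 times as bright as the untreated array at date 1 and 2.55 times at date 2. Higher groups without overlap were seen for 26.2% of all genes. Kdr did not pass without date as a block, either with all 4 arrays or without LGG replicate 1 (log2 change 1.17), and it passed without LGG replicate 2 (1.42). Without untreated replicate 1 or untreated replicate 2 no gene in the table passed (limma, 485 and 533 genes at an unadjusted p under 0.05). Because Kdr marks endothelium, 12 endothelial markers were looked at: 11 had values on all arrays and 2 of these passed the filter, Egfl7 and Eng, neither of which passed the test. Summed over the 11, their intensity was 708 to 785 untreated and 514 to 690 with LGG. The defining markers Tie1 (1.5 to 3.8), Pecam1 (12.1 to 48) and Cdh5 (41.6 to 64.7) were dim on every array, and Vwf had values at date 2 only, 1.2 untreated and 3 with LGG.

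**Figure D1:**
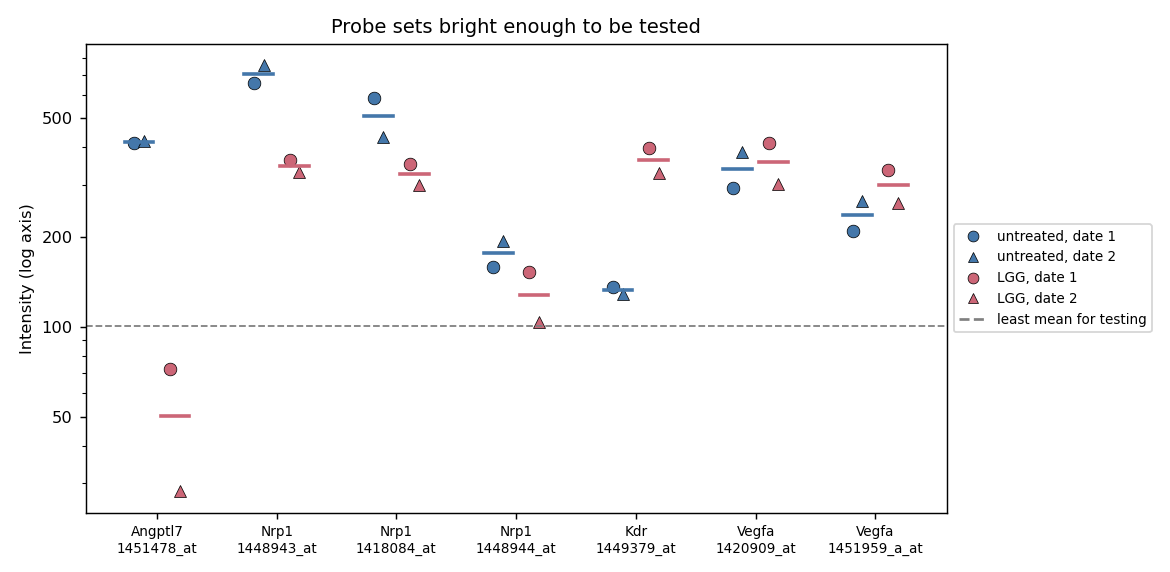
Intensity (log axis) of the 7 probe sets that were tested, on each of the 4 arrays; circles are date 1, triangles date 2, blue untreated, red LGG, short bars the mean of 2 arrays, and the dashed line the least mean for testing, 101. Angptl7 is the one probe set whose LGG arrays both lie under the line (72.2 and 28.1), the LGG arrays of Kdr (396.5 and 329.2) lie above its untreated arrays, and the groups overlap for both Vegfa probe sets.

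Vegfa, the ligand of Kdr, Flt1 and Nrp1, had 2 probe sets that were tested, and neither passed. The brighter, 1420909_at, measured 292.7 (date 1) and 386.1 (date 2) untreated, against 412.8 and 301 with LGG. LGG was higher at date 1 (log2 ratio 0.46) and lower at date 2 (-0.33), the groups overlapped, and the log2 change over both dates was 0.06 ± 0.26 (SE). The other, 1451959_a_at, measured 209.3 and 263.8 untreated and 336.1 and 260 with LGG. It was 1.61 times as bright with LGG at date 1 and 0.986 times at date 2, a log2 change of 0.30 ± 0.26. Both probe sets were thus higher with LGG at date 1, and on both the untreated array was the brighter one at date 2. Ratios of opposite sign at the dates were seen for 34.7% of all genes. Whether the ratio of LGG to untreated for Vegfa differs between the dates cannot be tested with 1 array of each group per date.

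**Figure D2:**
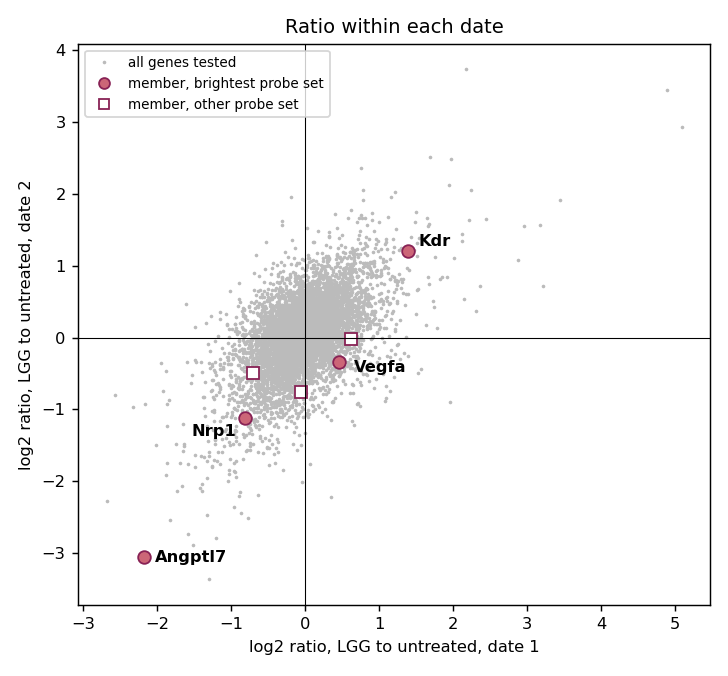
Log2 ratio of LGG to untreated at date 1 (horizontal) against date 2 (vertical), on log2(intensity + 25.2), for the 6952 genes tested (grey) and the member probe sets (filled circles the brightest of a gene, open squares the others). Kdr lies in the upper right (1.39 and 1.20), Nrp1 and Angptl7 in the lower left (-0.81 and -1.13; -2.17 and -3.06), and Vegfa below the horizontal line on the right (0.46 and -0.33).

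The difference between the dates took no part in the choice of the genes and was tested in the same limma fit with group as the other term. Of the 4 genes 0 passed (limma; 0 at an unadjusted p under 0.05), against 0.388% of all genes. The largest difference was that of Angptl7, a log2 change from date 1 to date 2 of -0.43 ± 0.29 (SE, adjusted p = 0.634). The LGG arrays differed by -0.87 and the untreated arrays by 0.02, but both LGG values (72.2 and 28.1) were under the filter, so this difference is largely one between dim values. The difference was -0.16 ± 0.25 for Kdr (adjusted p = 0.863), 0.04 ± 0.23 for Nrp1 (0.973) and -0.03 ± 0.26 for Vegfa (0.981). The near-zero value of Vegfa is the mean of 0.37 between the untreated arrays and -0.43 between the LGG arrays.

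The remaining ligands and receptors were dim: 6 probe sets with values on all arrays measured between 1.6 and 80.2, and none reached the filter, so they were not tested. Flt1, the tight-binding VEGF receptor, had 2 of them. Probe set 1451756_at measured 62.9 and 33.3 untreated and 49.9 and 80.2 with LGG at dates 1 and 2, and 1419300_at measured 17.5 and 14 untreated and 14.1 and 43.8 with LGG. On both, the LGG array of date 2 was the highest of the 4 and the groups overlapped. The other Flt1 probe set, 1454037_a_at, had values at date 2 only, 50 untreated and 115.7 with LGG. At date 2 the LGG array was thus above the untreated array on all 3 Flt1 probe sets, and at date 1 it was below it on the 2 with values. All but 1 of these values lie under the filter, and no fold is given for them.

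Angptl4, the lipoprotein lipase inhibitor, measured 60.2 and 77.6 untreated and 67.6 and 17.1 with LGG on probe set 1417130_s_at. The LGG array of date 2 was the lowest of the 4, and the other 3 lay close together. A second Angptl4 probe set, 1453410_at, had values at date 2 only, 7 untreated and 10.9 with LGG. Pgf, which encodes placental growth factor, measured 7.1 on both untreated arrays and 16.8 and 3.5 with LGG. Angpt1, the Tie2 ligand, lay between 3.9 and 5.7 on the 4 arrays. Vegfc, the lymphatic growth factor, measured 1.9 and 1.6 untreated and 3.6 and 4.1 with LGG, which do not overlap but lie a few units above the table's minimum of 0.1. No log2 change is given for these genes, since there is no background level to set them against.

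**Figure D3:**
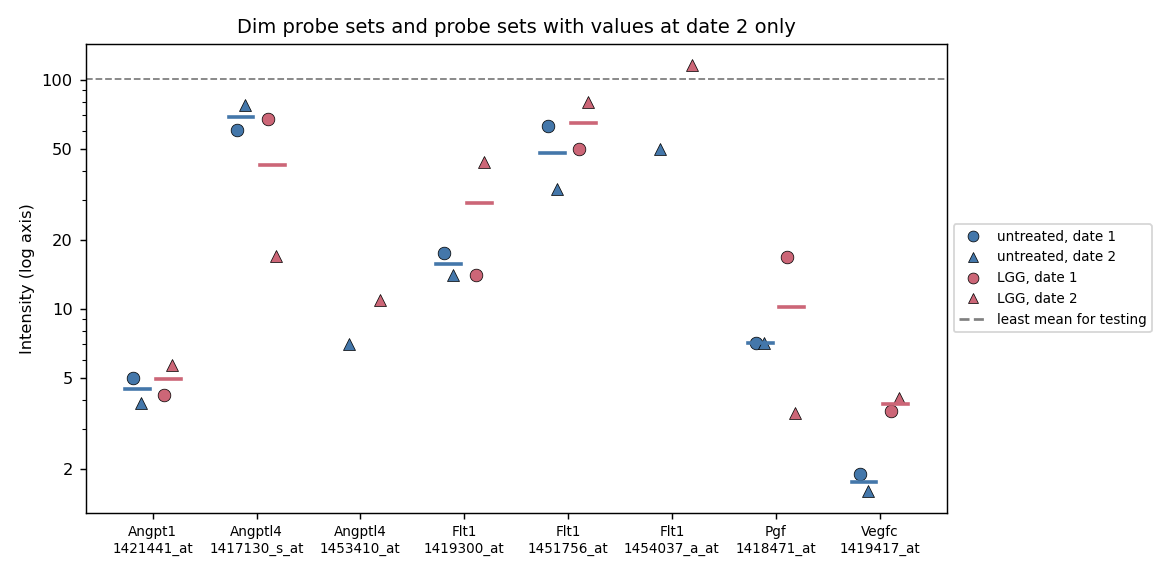
Intensity (log axis) of the 6 member probe sets under the filter and the 2 with values at date 2 only; symbols as in the plot of the tested probe sets, with the dashed line at 101. Most points lie well under the line, Vegfc and Angpt1 lowest (1.6 to 5.7), and the Flt1 probe set 1454037_a_at with LGG at date 2 (115.7) is the one value above it.

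The genes with the most similar pattern over the 4 arrays were found by Euclidean distance between log2 values, each centred on its own mean, among the other 6951 genes. Nearest to Angptl7 were Efnb2 (distance 0.44), Mt1 and Ppp2r2b (both 0.47), which were lower with LGG at both dates and more so at date 2, with log2 ratios of -1.83 and -2.54 for Efnb2. Nearest to Nrp1 were Dock1 (0.08), Pccb (0.09) and Gja1 (0.10), with log2 changes of -0.98, -0.93 and -1.03. Nearest to Kdr were Trpc1 (0.19), Hmces (0.19) and Ccn1 (0.20), with log2 changes of 1.23, 1.12 and 1.17. Many genes lie close to such a profile when it has 4 points, and with probe sets averaged 0 of the 3 neighbours of Kdr and of Nrp1 and 2 of those of Angptl7 were found again.

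The gene lists that follow were chosen with earlier results of these data known, so their counts are descriptions, to be read beside the 3.01% of all genes that rose and the 3.50% that fell. Among other ligands and receptors of the family, 5 of 12 listed genes were tested: 0 rose and 1 fell, with a median log2 change of -0.30 against 0.03 over all genes. Vegfd, a ligand of the lymphatic receptor Flt4, measured 1407.4 and 764.7 untreated and 450.9 and 207 with LGG, lower at both dates (log2 change -1.68 ± 0.23, limma adjusted p = 0.000841). Without LGG replicate 2 its log2 change was -1.16 and it did not pass. Flt4 (-0.56), Vegfb (-0.30), Angptl6 (0.57) and Nrp2 (-0.15) did not pass, and the Tie2 receptor gene Tek, with 149.4 and 96.1 untreated and 36.8 and 51.4 with LGG, was under the filter. Of 8 semaphorin and plexin genes tested, 0 rose and 3 fell, where 3.50% of all genes fell. The median log2 change of the 8 was -0.40, with -0.73 at date 1 and 0.02 at date 2. The 3 that fell were lower at both dates. Sema3a (-0.97 ± 0.20, limma adjusted p = 0.011), Sema3c (-0.91 ± 0.18, 0.0106) and Sema3f (-0.85 ± 0.22, 0.0365), secreted ligands of neuropilins, fell, and the plexin Plxnd1 (0.57) did not pass. Without LGG replicate 1 none of these 3 passed, with log2 changes of -0.76, -0.65 and -0.84, and without LGG replicate 2 Sema3f did not (-0.86). With median scaling Sema3f did not pass, and without an intensity trend Sema3a alone did.

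Of 19 hypoxia factors and targets tested, the setting in which Vegfa is best known to be induced, 0 rose and 6 fell (median -0.46; 3.50% of all genes fell). They included Pdk1 (-1.72 ± 0.23, limma adjusted p = 0.000858), which restrains the use of pyruvate in mitochondria, and the glucose transporter Slc2a1 (-1.13 ± 0.22, 0.00977). The others were Bhlhe40 (-0.95) and Bnip3 (-0.83), and, named after their values were seen, Ldha (-0.77) and Hif1a itself (-0.72). With median scaling 3 of the 6 passed (Slc2a1, Ldha and Pdk1), and without an intensity trend 2 did (Slc2a1 and Pdk1). Hif1a was also lost with quantile normalization (limma adjusted p = 0.0604) and with the filter raised to 50% of the trimmed mean (0.0547). Without LGG replicate 1, 3 of the 6 passed, and without LGG replicate 2 it was 2. Without untreated replicate 2 the log2 changes of Bhlhe40 and Bnip3 were -0.49 and -0.44. Of 11 PPAR receptors and targets, the group to which Angptl4 belongs, 1 rose (Plin2, a lipid droplet protein, 0.89 ± 0.20, adjusted p = 0.0182; not without LGG replicate 1, 0.75, nor without an intensity trend) and 0 fell (median 0.10), and Cpt1a (-0.51), Rxra (0.50) and Cpt2 (0.50) did not pass. Of 9 inhibitors of angiogenesis, 1 rose and 1 fell, and the median was 0.10, with -0.10 at date 1 and -0.02 at date 2. The chemokine Cxcl10 measured 711.5 and 1878.4 untreated and 2074.5 and 4711.8 with LGG at dates 1 and 2. Its difference between the dates passed as well (limma adjusted p = 0.0081). With LGG, Cxcl10 rose (1.41 ± 0.18, limma adjusted p = 0.000709) and Timp3, a metalloproteinase inhibitor that also blocks Kdr, fell (-0.72 ± 0.13, 0.00699). Without LGG replicate 2 neither passed, with log2 changes of 0.83 and -0.48, and without untreated replicate 1 Cxcl10 had 0.73. Without an intensity trend Timp3 did not pass. Col18a1 (-0.57) and Serpinf1 (-0.41) did not pass. Without date as a block Pdk1 was the 1 gene of these lists that passed.

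**Figure D4:**
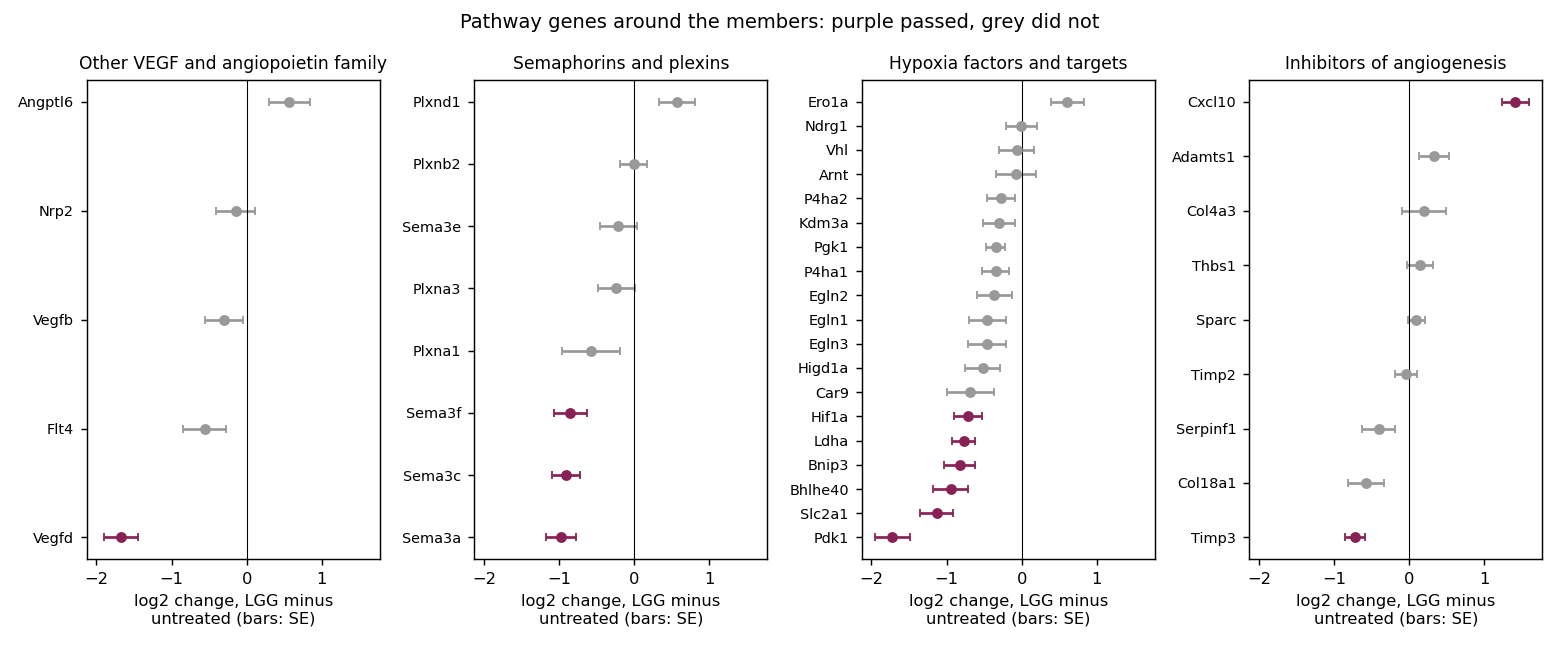
Fitted log2 change (LGG minus untreated, 4 arrays, bars the SE) of the tested genes of 4 lists around the members; purple genes passed the limma fit at an adjusted p under 0.05 and grey genes did not. Vegfd (-1.68), the 3 semaphorins and 6 hypoxia genes lie left of 0, and Cxcl10 (1.41) lies right of it.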

How the data were processed

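RNA of untreated and LGG-treated cells was profiled on 4 arrays. The authors deposited linear intensity values per probe set; software and scaling are not given in the sources used here. Groups and dates came from the array titles. The shared dates pair the arrays, as the titles give them, and the differences between dates in the 2 groups correlated at 0.27 across probe sets. Values were taken as log2(intensity + 25.2), the pseudocount being 5% of the mean of the arrays' trimmed means (504.9), and probe sets with a mean under 20% of it were left out. Tests used limma 3.58.1 in R 4.3.3 (terms for group and date, eBayes with trend on intensity, Benjamini-Hochberg over all probe sets tested), two-sided. Each gene took the values of the brightest of its probe sets with 1 symbol in the platform annotation; 20364 of 20393 such probe sets matched the mouse RefSeq table by Entrez identifier. The text names, of each list, the genes that changed most with 1 sign at each date (up to 4) and all that passed where 5 or fewer did. Nrp2, Tek and the markers were named after their values were seen. The genes and lists were chosen with earlier results of these data known. The fit was tested on simulated data, where it made more false calls than the nominal share. How often it misses changes as small as most of those given here was not tested. A gene that did not pass is therefore not shown to be unchanged. Figures were drawn with matplotlib 3.10.9.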

Additional observations from a re-analysis of the deposited data

Results flagged for a closer look

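Both Vegfa probe sets had log2 ratios of LGG to untreated of opposite sign at the dates: 0.46 at date 1 and -0.33 at date 2 for 1420909_at, and 0.62 and -0.019 for 1451959_a_at. Whether these ratios differ between the dates was not tested, since each date has 1 array per group. For 2 probe sets outside the comparison, with values at date 2 only, the LGG array was above the untreated array: Flt1 1454037_a_at measured 115.7 against 50, and Angptl4 1453410_at measured 10.9 against 7.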

How the results depend on the processing

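With date as a replicate block 452 genes passed for LGG against untreated, and without it 61; 0 of 10782 passed with no filter on dim probe sets (limma, 1525 at an unadjusted p under 0.05), 813 with probe sets averaged, 244 without an intensity trend and 0 to 428 with 1 array left out, in fits that also lack the block. Of the members, 3 passed with the block, 1 without it (Angptl7), 0 with no filter, 1 with the filter raised to 50% of that mean (Nrp1, as Angptl7 and Kdr fell under it) and 0 to 2 with 1 array left out. Angptl7 entered the test through its untreated arrays, as both its LGG values were under the filter. Log2 changes ran from -3.18 to -1.79 for Angptl7, 0.99 to 1.44 for Kdr and -1.06 to -0.66 for Nrp1 over the alternatives in which each was tested. The groups did not overlap on their probe sets. Leaving out 1 array, another pseudocount, no block or no trend could therefore not reverse these signs, and nothing is read from their constancy. Vegfa, whose groups overlapped, ran from -0.15 to 0.28 with 1 array left out. For date 2 against date 1, 27 genes passed, and without group in the fit (no replicate block) 0, with no filter 0, at 50% 15, with quantile normalization 14, with median scaling 5, with probe sets averaged 135, without a trend 2 and with 1 array left out 0 to 1; no member passed in any. Its value for Nrp1 was -0.036 with quantile normalization and -0.13 with probe sets averaged. With 1 array left out, where date alone is fitted and is mixed with group, it ran from -1.95 to 1.10 for Angptl7, -0.85 to 0.53 for Kdr, -0.53 to 0.60 for Nrp1 and -0.26 to 0.20 for Vegfa. Except where given, the cause was not tested. The number of arrays and the missing detection calls limit what can be said of dim genes.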
